A study of Mus musculus with 6 samples.

Results

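The genes described here encode serine proteases, the proprotein convertases, and the serpin, Kunitz and Kazal inhibitors that block serine proteases. They were chosen by gene symbol: every symbol starting with Serpin, every numbered Spink, Spint, Prss, Tmprss, Htra, Pcsk and Klk symbol, and St14, Furin, Plau, Plat and Hpn. This rule found 149 of 21740 measured genes, 76 of them proteases and 73 inhibitors or related serpins. The genes were measured in mouse uterine luminal epithelium, the cell sheet that lines the uterine cavity and meets the embryo first. Wild type females of a mixed C57BL6/129svj background, 2 to 4 months old, were mated naturally, and the day of the vaginal plug was counted as day 0.5. Tissue was taken at gestation day 3.5 (D3.5), with blastocysts in the uterus, and at gestation day 4.5 (D4.5), with implantation sites present. Sheets were freed with 0.5% dispase, itself a protease preparation, and gentle scraping, and each day had 3 one-colour Affymetrix arrays made from 1 µg of total RNA. Whether each array stands for its own animal or animals is not in the labels. The p-values therefore rest on the spread among these samples, and that spread may be technical.

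Serine proteases cut proteins outside cells and in the secretory pathway. Proprotein convertases cut the precursors of growth factors, receptors and other proteases at basic residues. Membrane-anchored proteases such as matriptase (St14) and prostasin (Prss8) act at the epithelial surface, where the Kunitz inhibitors HAI-1 (Spint1) and HAI-2 (Spint2) restrain them. Urokinase (Plau) and tissue plasminogen activator (Plat) turn plasminogen into plasmin, and serpins such as Serpine2 inhibit them. In the mouse uterus, Prss28 and Prss29 are known as the implantation serine proteinases and are described in the glands.

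Levels are given as log2(intensity + 16), quantile normalized, where intensity is the deposited array signal. A change is D4.5 minus D3.5 on that log2 scale with its standard error, and adjusted p-values come from limma over all genes. The median deposited intensity was 108.6 to 118.4 on the D3.5 arrays and 78.9 to 80.2 on the D4.5 arrays, and each day's arrays share that difference. The effect of the day and that of how the arrays were processed cannot be told apart. Epithelial markers were high on both days, with Cdh1 at 11.36 and 11.41 and Epcam at 10.11 and 10.24. Of 8 such markers 3 rose and 1 fell, the latter Krt19, beside 18.0% higher and 26.4% lower of all genes. As a measure of background, 1346 olfactory, vomeronasal, trace amine and taste receptor genes were used, which this epithelium is not known to express. The 95th percentile of their mean level was 6.56 at D3.5 and 6.37 at D4.5, and their changes lay between -0.59 and 0.33 for 95% of them. A gene under these limits is called at receptor level. By this measure 84 of the 149 members (56.4%) were at receptor level on both days, beside 32.4% of all genes. That share of all genes is also the comparison for such counts in the classes below. In bulk samples such as these, fewer cells of a type and less RNA per cell cannot be told apart.

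Of the 149 members, 25 rose, 40 fell and 84 did not pass an adjusted p of 0.05. The share that passed was 43.6%, beside 44.4% of all genes (18.0% higher and 26.4% lower on D4.5), which is near the background. Of the 1346 receptor genes 78 passed as higher and 326 as lower (30.0% together), so that a call at receptor level is not in itself a sign of expression. Of the 65 members that passed, 35 had a change inside the range of the receptor genes and 30 outside it. The median change of the members was -0.07, and that of all genes was also -0.07. In the values as deposited the median of all genes moved to -0.40, where 14 members were higher and 108 lower, beside 2483 and 13431 of all genes. With median centring it was 0.02, and 30 members were higher and 37 lower, beside 6093 and 4264 of all genes. With a change of at least 2-fold as well, 14 members passed (9.40%), 9 of them higher and 5 lower. The background for that criterion was 5.50% of all genes, 3.04% higher and 2.46% lower. Among genes above receptor level on at least 1 day, 66.2% of 65 members passed the adjusted p, beside 51.0% of 14691 genes. With 2-fold as well it was 21.5% beside 8.07%. That filter uses the same arrays, so a gene can enter through the day on which it is higher. The difference between these shares was not tested. With arrays centred on their medians instead, 12 members were higher and 3 lower at 2-fold, and in the values as deposited 8 were higher and 10 lower. Among the proteases 7 of 76 rose and 1 fell by at least 2-fold, and among the inhibitors and other serpins 2 of 73 rose and 4 fell. The difference between proteases and inhibitors was not tested.

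**Figure D1:**
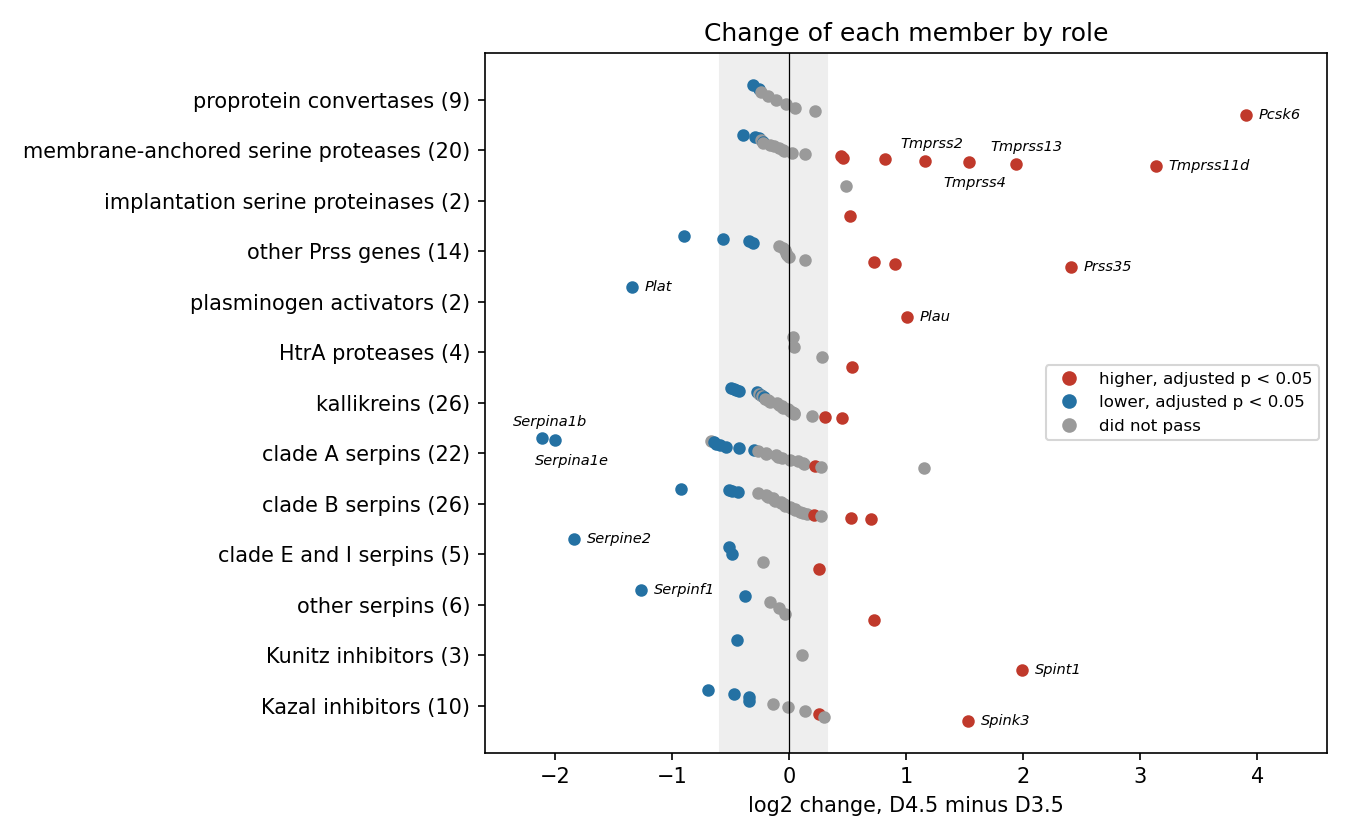
Change of each of the 149 members on the log2 scale (x axis) by role (y axis, number of genes in parentheses; the convertase row includes the inhibitor gene Pcsk1n). Each point is a gene, red higher and blue lower on D4.5 with adjusted p under 0.05, grey not passed; the shaded band holds 95% of the changes of receptor genes, -0.59 to 0.33, and the 14 genes past 2-fold are named.

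Upstream sequence is shown for 4 members whose changes are among those the results turn on: 2 that rose (Pcsk6 and Tmprss11d) and 2 paralogs that fell together (Serpina1b and Serpina1e). Each is the 250 bases before the transcript start from RefSeq, assembly GRCm38.p6, in the direction of transcription and written 5′ to 3′. Capitals mark matches to the GC box (GGGCGG), the CCAAT box (CCAAT) and the AP-1 motif (TGANTCA) on either strand, which do not overlap each other here. Both strands were also searched for TATAAA, the usual core of the TATA box. The other motifs searched were CACGTG, an E-box, and AGATAA, a site known to bind GATA factors. A Grainyhead motif (AACCGGTT) and the palindromic oestrogen and progesterone response elements were searched as well, and none of these was in the 4 windows.
Pcsk6, chr7:65861886-65862135, plus strand: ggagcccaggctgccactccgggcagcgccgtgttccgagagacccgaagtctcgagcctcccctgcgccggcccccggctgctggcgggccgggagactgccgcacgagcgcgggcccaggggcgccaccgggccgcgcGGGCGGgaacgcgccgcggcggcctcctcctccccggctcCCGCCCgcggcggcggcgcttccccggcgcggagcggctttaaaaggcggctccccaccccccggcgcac
Tmprss11d, chr5:86373388-86373637, minus strand: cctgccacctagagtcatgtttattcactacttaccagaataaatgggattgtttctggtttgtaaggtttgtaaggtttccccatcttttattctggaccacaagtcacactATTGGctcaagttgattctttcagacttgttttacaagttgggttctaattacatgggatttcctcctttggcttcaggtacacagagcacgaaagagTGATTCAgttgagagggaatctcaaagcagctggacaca
Serpina1b, chr12:103738190-103738439, minus strand: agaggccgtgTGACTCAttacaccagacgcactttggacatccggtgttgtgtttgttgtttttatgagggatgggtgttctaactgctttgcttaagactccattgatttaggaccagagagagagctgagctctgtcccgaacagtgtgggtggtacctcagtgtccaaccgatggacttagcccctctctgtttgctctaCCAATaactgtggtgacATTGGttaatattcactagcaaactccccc
Serpina1e, chr12:103956898-103957147, minus strand: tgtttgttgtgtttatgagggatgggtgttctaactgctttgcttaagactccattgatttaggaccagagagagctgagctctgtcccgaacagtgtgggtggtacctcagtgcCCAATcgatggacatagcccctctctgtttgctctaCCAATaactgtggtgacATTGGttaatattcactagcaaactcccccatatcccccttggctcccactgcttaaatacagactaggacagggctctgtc
The Pcsk6 window had a GC content of 81.2% and held GC boxes, whereas the Tmprss11d window had 41.2% and held none. Over all 27025 genes with a promoter entry, 35.4% held a GC box in this window, 37.5% a CCAAT box and 7.82% an AP-1 motif. The share was 14.3% for the TATA box, 6.86% for the E-box, 11.4% for the GATA motif and 0.137% for the Grainyhead motif. It was 0.0666% for the oestrogen and 0.0111% for the progesterone response element. Of the 114 members with an entry, 26 held a GC box, 45 a CCAAT box and 18 an AP-1 motif. The Serpina1b and Serpina1e windows, aligned without gaps, had 145 of 198 bases equal (73.2%). A run of AG repeats inside the shared stretch is longer in Serpina1b, which puts the bases on one side of it out of register. The share therefore understates how alike these windows are.

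The proprotein convertases differed widely among themselves, and Pcsk6 had the largest rise of the 149 members under the main scaling. Pcsk6, also called PACE4, is a secreted convertase that cuts precursors of the TGF-beta family such as Nodal. Its level was 6.87, 7.30 and 6.81 on the D3.5 arrays and 10.92, 10.96 and 10.80 on the D4.5 arrays. The days were far apart, and the D4.5 arrays lay within a narrow range. The change was 3.90 ± 0.13, or 14.96-fold (adjusted p = 8.75e-06), and it was 3.47 to 4.20 over all alternative fits.

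Furin, the convertase of the trans-Golgi network found in most cells, stood at 9.19, 9.44 and 9.41 on D3.5 and 9.49, 9.58 and 9.62 on D4.5. Its arrays did not overlap between the days, as those of 58.6% of all genes did not, but the change of 0.22 ± 0.09 did not pass (adjusted p = 0.0776, 95% interval 0.01 to 0.42). It passed with median centring (0.68) and with array weights (0.17), and was 0.14 without D3.5 replicate 1. Pcsk5, a secreted convertase related to Pcsk6, was at 7.85, 7.80 and 7.59 on D3.5 and at 8.04, 7.89 and 6.96 on D4.5, where the third array was low. Its change was -0.11 ± 0.26 (adjusted p = 0.746) and turned to 0.22 without that array. The mean level of 9 stromal markers was also lowest on that array, at 7.38, beside 8.67 and 8.04 on the other D4.5 arrays. The part of stromal cells in the level of Pcsk5 was not tested.

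Of the 8 convertases, Pcsk6 alone rose and Pcsk1, a neuroendocrine convertase, fell, while 6 did not pass, beside 18.0% higher and 26.4% lower of all genes. Pcsk1 changed by -0.31 ± 0.09 (adjusted p = 0.03) at receptor level on both days and did not pass when any 1 of 4 arrays was left out. Pcsk2, the other neuroendocrine convertase (-0.03 ± 0.07), was also at receptor level. Pcsk4, known from germ cells (-0.18 ± 0.12), and Pcsk7 (0.05 ± 0.08) were above it and did not pass. Pcsk1n, which encodes the convertase inhibitor proSAAS, changed by -0.26 ± 0.09 (adjusted p = 0.0444). That call was lost in 9 of the 16 alternative fits.

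Known substrates of the convertases moved in both directions. Among 17 measured substrates 5 rose and 3 fell, while 9 did not pass, beside 18.0% higher and 26.4% lower of all genes. The median change of the list was -0.02. Igf1r, the receptor of insulin-like growth factors, rose by 0.90 ± 0.10 (adjusted p = 0.000469), from 9.74, 9.82 and 9.61 to 10.55, 10.52 and 10.79. Mmp11, a furin-activated metalloprotease, rose by 0.62 ± 0.11, and in the values as deposited its change was 0.28 and did not pass. Notch1, a receptor that furin cuts on its way to the surface, fell from 10.28, 10.43 and 10.50 to 9.36, 9.03 and 9.25 (-1.19 ± 0.10, adjusted p = 0.000184). Nodal changed by -0.02 ± 0.06 and Bmp4 by 0.02 ± 0.10, and neither passed. Mean levels on D3.5 and D4.5 were 6.55 and 6.53 for Nodal and 6.49 and 6.52 for Bmp4. Both genes were at receptor level on D3.5 and little above the limit of 6.37 on D4.5. Lefty1, an antagonist of Nodal, changed by -0.22 ± 0.07 at receptor level on both days (adjusted p = 0.0329), a call lost in 5 alternative fits, while Lefty2, the related antagonist, changed by 0.31 ± 0.07, also at receptor level (adjusted p = 0.008).

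**Figure D2:**
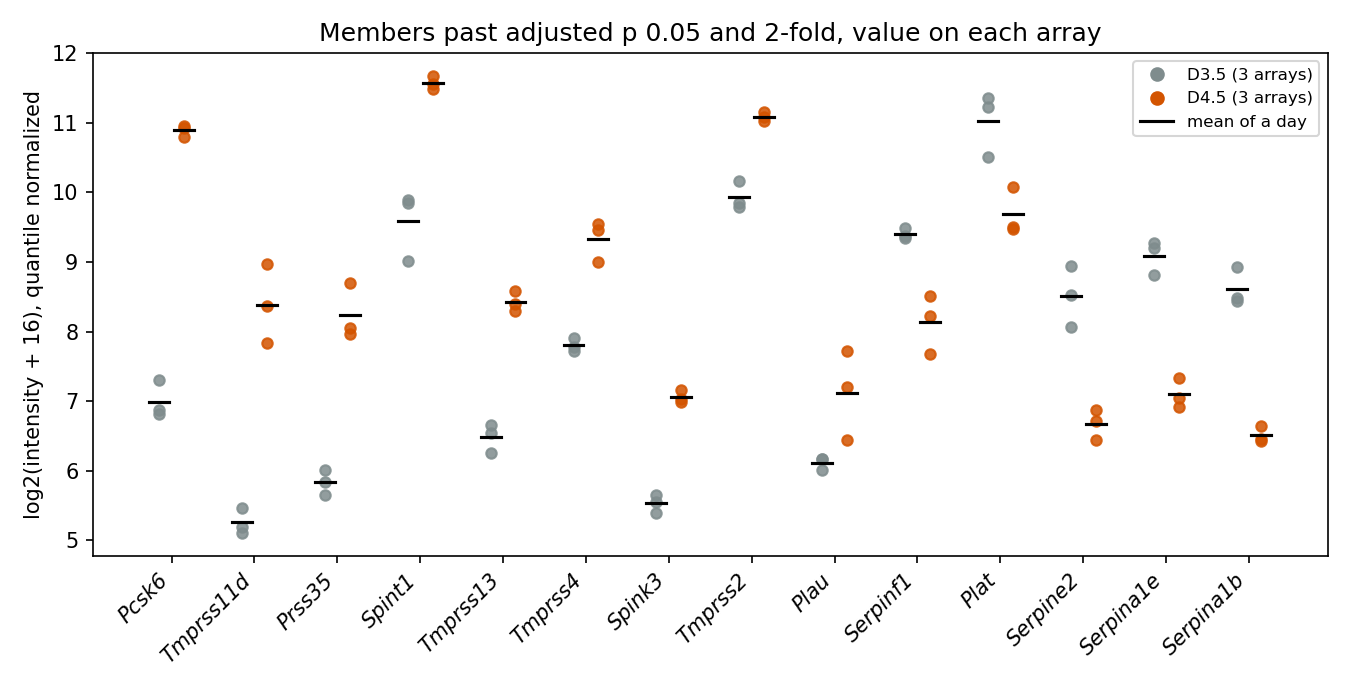
Level of the 14 members past adjusted p 0.05 and 2-fold on each array, in log2(intensity + 16) after quantile normalization (y axis); grey points are the 3 D3.5 arrays, orange points the 3 D4.5 arrays, and bars the mean of a day. The days do not overlap for any of the 14 genes, and Plau has the widest spread on D4.5, from 6.45 to 7.72. These genes were chosen by their change on the same arrays, so the lack of overlap adds no support. Of all genes, 58.6% had days that did not overlap.

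Several membrane-anchored serine proteases of the epithelial surface rose. Of 20 measured, 7 rose and 4 fell at adjusted p under 0.05, beside 18.0% and 26.4% of all genes. At 2-fold or more 4 rose and none fell, beside 3.04% and 2.46%. The median change of the class was -0.05, and 9 of the 20 were at receptor level on both days. The 7 that rose were Tmprss11d, Tmprss13, Tmprss4, Tmprss2, St14, Prss8 and Hpn.

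Tmprss11d, the airway trypsin-like protease, was at 5.11, 5.47 and 5.20 on D3.5 and at 8.37, 7.83 and 8.97 on D4.5. It rose by 3.13 ± 0.26, or 8.76-fold (adjusted p = 0.000145), from receptor level, and with a constant of 64 in place of 16 the change was 2.15. Tmprss13, a mosaic serine protease of stratified epithelia, was at 6.54, 6.66 and 6.26 on D3.5, also at receptor level, and at 8.29, 8.40 and 8.58 on D4.5 (1.93 ± 0.12, adjusted p = 4.83e-05). Both genes lay near the background on every D3.5 array and well above it on every D4.5 array.

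Tmprss4, a protease known from epithelial tumours, was at 7.91, 7.72 and 7.77 on D3.5 and at 9.46, 9.55 and 9.01 on D4.5 (1.53 ± 0.14, adjusted p = 0.000226). Tmprss2, which primes viral surface proteins in airway epithelium, was at 10.16, 9.85 and 9.79 on D3.5 and at 11.03, 11.16 and 11.09 on D4.5 (1.16 ± 0.11, adjusted p = 0.000226). For both genes every D4.5 array was above every D3.5 array, and the days did not overlap for 58.6% of all genes.

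St14, which encodes matriptase, was at 10.67, 10.67 and 10.57 on D3.5 and at 11.48, 11.38 and 11.51 on D4.5. Its change was 0.82 ± 0.07, or 1.77-fold (adjusted p = 0.00017), and 1.35 with median centring. Prss8, which encodes prostasin, a partner of matriptase in the activation of epithelial proteases, was at 10.32, 10.37 and 10.46 on D3.5 and at 10.87, 10.81 and 10.86 on D4.5. It rose by 0.46 ± 0.07 (adjusted p = 0.00168), and by 0.99 with median centring. Hpn, which encodes hepsin, a protease first known from liver, was at 7.40, 7.42 and 7.40 and then at 7.77, 7.85 and 7.94 (0.45 ± 0.07, adjusted p = 0.00221; 0.24 in the values as deposited). The arrays of a day lay close together for all 3 genes. The days did not overlap, as those of 58.6% of all genes did not.

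The 4 members of this class that fell did so by small amounts. They included Tmprss7 (-0.26 ± 0.07) at receptor level and Tmprss3, known from the inner ear (-0.39 ± 0.11, adjusted p = 0.0271). Tmprss3 lost its call in the fit with the replicate number as a block and when any 1 of 4 arrays was left out, and Tmprss7 lost it without D4.5 replicate 2.

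In the RefSeq gene order of GRCm38.p6, members that rose had neighbours that did not as well as neighbours that did. Tmprss11d lies on chromosome 5 in a cluster of Tmprss11 genes, of which 6 were measured. The other 5 were at receptor level on both days. Of these 1 fell, Tmprss11f (-0.23 ± 0.08, adjusted p = 0.0459), and none rose, beside 26.4% lower and 18.0% higher of all genes. Tmprss11c, directly next to Tmprss11d, changed by -0.09 ± 0.06, and Tmprss11a on the other side by -0.04 ± 0.07. Tmprss4 and Tmprss13, which both rose, lie on chromosome 9 with 2 protein-coding genes between them. Of those, Il10ra was measured, at receptor level, with a change of 0.14 ± 0.11. Prss8 on chromosome 7 has Prss36 as its neighbour, and Prss36 fell by 0.34 on the log2 scale while Prss8 rose.

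Of the Kunitz inhibitors of matriptase, Spint1 rose and Spint2 did not pass. Spint1, which encodes HAI-1, was at 9.01, 9.85 and 9.89 on D3.5, where the first array was low, and at 11.56, 11.68 and 11.49 on D4.5. It rose by 1.99 ± 0.22, or 3.98-fold (adjusted p = 0.000515), and by 1.71 to 2.48 over the alternative fits. Spint2, which encodes HAI-2, was at 10.95, 10.61 and 10.63 on D3.5 and at 10.81, 10.90 and 10.83 on D4.5, with overlap between the days. Its change of 0.11 ± 0.10 did not pass (adjusted p = 0.395, 95% interval -0.12 to 0.35), although it passed with median centring (0.66), in the values as deposited (0.23), with array weights (0.22) and without D3.5 replicate 1 (0.22). Spint4 changed by -0.44 ± 0.08 at receptor level on both days.

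Genes whose products matriptase, hepsin and prostasin are known to act on, or that receive such products, are the next list. Of 9 measured, 5 rose, 1 fell and 3 did not pass, beside 18.0% higher and 26.4% lower of all genes, with a median change of 0.43 beside -0.07 for all genes. Met, the receptor of hepatocyte growth factor, was at 8.38, 8.17 and 7.56 on D3.5 and at 9.81, 9.86 and 9.78 on D4.5 (1.78 ± 0.19, adjusted p = 0.000421). The mean of its ligand gene Hgf was at receptor level on both days (0.33 ± 0.34). On D4.5 the Hgf arrays were at 7.15, 6.30 and 5.63, the first above the limit, in the order of the stromal markers. The part of stromal cells in the level of Hgf was not tested. Scnn1b, a subunit of the epithelial sodium channel, rose from 5.89, 6.20 and 5.97, at receptor level, to 7.88, 7.78 and 6.75 (1.45 ± 0.28, adjusted p = 0.00545). Scnn1g changed by 0.68 ± 0.23 (adjusted p = 0.0422) with days that overlapped, and Scnn1a by 0.26 ± 0.17, which did not pass. Mst1, the ligand of the receptor kinase Mst1r, fell by 0.25 on the log2 scale (adjusted p = 0.0376), a call lost in 6 alternative fits.

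Among the 4 protease-activated receptors 1 rose and 1 fell, beside 18.0% higher and 26.4% lower of all genes. F2rl1, which encodes PAR2, a receptor opened by trypsin-like proteases, was at 7.54, 8.28 and 8.54 on D3.5 and at 9.69, 9.43 and 9.58 on D4.5. It rose by 1.45 ± 0.24, or 2.73-fold (adjusted p = 0.00264). F2rl2 changed by -0.30 ± 0.08 (adjusted p = 0.0151) and reached receptor level on D4.5, a call lost without D3.5 replicate 3 and without D4.5 replicate 1. F2r, the thrombin receptor (0.34 ± 0.35), and F2rl3 (-0.42 ± 0.14, adjusted p = 0.0502) did not pass.

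The plasminogen activators changed in opposite directions. Plat, the tissue-type activator, was at 11.23, 10.51 and 11.36 on D3.5 and at 10.09, 9.51 and 9.47 on D4.5. It fell by 1.35 on the log2 scale (SE 0.25, 2.54-fold, adjusted p = 0.00474), and by 0.84 with median centring. Plau, the urokinase-type activator, was at 6.17, 6.17 and 6.00 on D3.5, at receptor level, and at 7.72, 7.20 and 6.45 on D4.5. Its rise of 1.01 ± 0.28 (2.01-fold, adjusted p = 0.0231) rested on unequal arrays. The call was lost without D3.5 replicate 3 (adjusted p = 0.0638), without D4.5 replicate 2 (0.0737) and in the values as deposited (0.123), and the change was 0.69 with a constant of 64.

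Plaur, the urokinase receptor, rose from 7.01, 6.70 and 6.97 to 8.72, 8.08 and 7.63 (1.25 ± 0.25, adjusted p = 0.00626). On D4.5 Plau and Plaur were both highest on replicate 1 and lowest on replicate 3. The mean level of 9 stromal markers was likewise 8.67 on D4.5 replicate 1, 8.04 on replicate 2 and 7.38 on replicate 3, against 7.87 to 8.37 on D3.5, and none of the 9 passed between the days. For 6 endothelial markers it was 7.82, 7.27 and 6.60 on D4.5 and 6.96 to 7.57 on D3.5, and none of these passed either. For 7 leukocyte markers it lay between 6.79 and 7.33 on D4.5, again highest on replicate 1 and lowest on replicate 3. On D3.5 it lay between 6.82 and 7.05. Of these 7 markers 1 rose, Csf1r (0.76 ± 0.13, adjusted p = 0.00365), and 1 fell, Cd3e (-0.42 ± 0.09, adjusted p = 0.0068). On D4.5 Csf1r was highest on replicate 1, and Cd3e was highest on replicate 3. The part of these cells in the levels of Plau and Plaur was not tested. Of 8 other genes of the plasminogen system 3 rose and 3 fell, beside 18.0% and 26.4% of all genes. The annexin gene Anxa2 fell by 1.04 on the log2 scale (adjusted p = 0.00508, by 0.66 with median centring), while S100a10, whose product binds annexin A2 as a plasminogen receptor, rose by 0.87 ± 0.11 (1.34 with median centring). Plasminogen itself (Plg) was at receptor level on both days.

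A serpin that inhibits these activators fell. Serpine2, which encodes protease nexin-1, an inhibitor of thrombin, urokinase and tissue-type activator, was at 8.06, 8.53 and 8.94 on D3.5 and at 6.87, 6.72 and 6.44 on D4.5. It fell by 1.84 on the log2 scale (SE 0.22, 3.57-fold, adjusted p = 0.000631), and the change lay between -2.09 and -1.46 over the alternative fits. Serpini1, known as neuroserpin, fell by 0.49 on the log2 scale at receptor level. Serpine3 changed by 0.26 ± 0.08 (adjusted p = 0.0281), and its call was lost in 6 alternative fits and its sign turned in the values as deposited. In all, of the 5 serpins of clades E and I, 1 rose, 3 fell and 1 did not pass, beside 18.0% and 26.4% of all genes.

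Serpins of clade A, the family of alpha-1-antitrypsin, included the members with the largest falls. Of 22 measured, 1 rose and 8 fell, beside 18.0% and 26.4% of all genes, and 14 were at receptor level on both days. The median change was -0.20. Serpina1b, a mouse copy of alpha-1-antitrypsin, was at 8.49, 8.44 and 8.92 on D3.5 and at 6.45, 6.64 and 6.43 on D4.5. It fell by 2.11 on the log2 scale (SE 0.14, 4.32-fold, adjusted p = 5.02e-05). Serpina1e was at 9.27, 8.81 and 9.19 on D3.5 and at 7.05, 7.33 and 6.91 on D4.5, and fell by 2.00 (SE 0.15, 3.99-fold, adjusted p = 9.48e-05). The days were well apart for both genes.

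These genes are paralogs in a cluster on chromosome 12, and probes may read more than their own gene, so the values of single copies are uncertain. Of the 6 genes with a Serpina1 symbol 3 fell, none rose and 3 did not pass, beside 26.4% lower and 18.0% higher of all genes. Serpina1a changed by -0.63 ± 0.13 (adjusted p = 0.00667). Serpina1c was at 8.88, 7.21 and 7.57 on D3.5 and did not pass (-0.67 ± 0.39). Serpina1d, which lies between Serpina1b and Serpina1a, was at receptor level on both days (-0.10 ± 0.08), as was Serpina1f. The windows before their starts were compared without gaps, so that an inserted or deleted base puts the bases beyond it out of register. Serpina1a and Serpina1e had 95.3% of 193 bases equal, Serpina1a and Serpina1b had 64.1% of 245, and Serpina1b and Serpina1d had 58.3% of 240. Serpina1d and Serpina1e had 94.7% of 188 equal, yet Serpina1a and Serpina1d had 75.5% of 245. The 5 pairs with Serpina1f had 33.6% to 36.4% equal. A low share is therefore no measure of how far the windows diverge.

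Serpina3n, an acute-phase serpin, had the largest change among members that did not pass. It was at 7.61, 9.13 and 7.63 on D3.5 and at 9.87, 9.30 and 8.65 on D4.5, with the second D3.5 array above the lowest D4.5 array. The change was 1.15 ± 0.46 (adjusted p = 0.0748). Serpina3n was named after its values were seen. Its D4.5 arrays, like the stromal markers, were highest on replicate 1 and lowest on replicate 3, and the part of stromal cells was not tested. The clade A gene that rose, Serpina3f, was at receptor level on both days (0.22 ± 0.07), lost its call in 6 alternative fits and turned to -0.26 in the values as deposited.

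Among the remaining secreted serpins, Serpinf1, which encodes the anti-angiogenic factor PEDF, was at 9.37, 9.49 and 9.34 on D3.5 and at 8.52, 8.22 and 7.67 on D4.5. It fell by 1.26 on the log2 scale (SE 0.19, 2.40-fold, adjusted p = 0.00207). Its D4.5 arrays, like the stromal markers, were highest on replicate 1 and lowest on replicate 3. Every one was below the D3.5 arrays, and the days did not overlap for 58.6% of all genes. Serpinf2, its neighbour on chromosome 11, encodes the plasmin inhibitor alpha-2-antiplasmin and changed by -0.38 ± 0.08. Serpinh1, the collagen chaperone of the endoplasmic reticulum, changed by 0.72 ± 0.19 (adjusted p = 0.0192). It lost its call in 5 alternative fits, among them those without D3.5 replicate 1 or 3 and without D4.5 replicate 1 or 2. Its D4.5 arrays, at 8.13, 8.04 and 7.64, also had the order of the stromal markers. The part of stromal cells in these levels was not tested. Serping1, the inhibitor of complement C1, was at 11.63, 11.43 and 11.45 on D3.5 and at 11.53, 11.36 and 11.50 on D4.5. Its days overlapped, and the change of -0.04 ± 0.09 did not pass.

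Most clade B serpins, which act inside cells, were near the background. Of 26 measured 3 rose, 4 fell and 19 did not pass, beside 18.0% and 26.4% of all genes, and 22 were at receptor level on both days. Serpinb5, known as maspin, was at 6.70, 7.04 and 6.89 on D3.5 and at 7.83, 7.23 and 7.67 on D4.5 (0.70 ± 0.16, adjusted p = 0.0113), a call lost in the values as deposited. Serpinb8, an inhibitor of furin in biochemical assays, was at 7.32, 6.87 and 7.29 on D3.5 and at 6.14, 6.21 and 6.35 on D4.5, the last at receptor level (-0.92 ± 0.13, adjusted p = 0.00142). Serpinb6b (0.53 ± 0.12) passed at receptor level but not in the values as deposited (0.043, adjusted p = 0.764), and Serpinb9b, of a family that inhibits granzyme B (-0.51 ± 0.07), fell to receptor level. Of 7 Serpinb9 genes 2 fell and 5 did not pass.

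**Figure D3:**
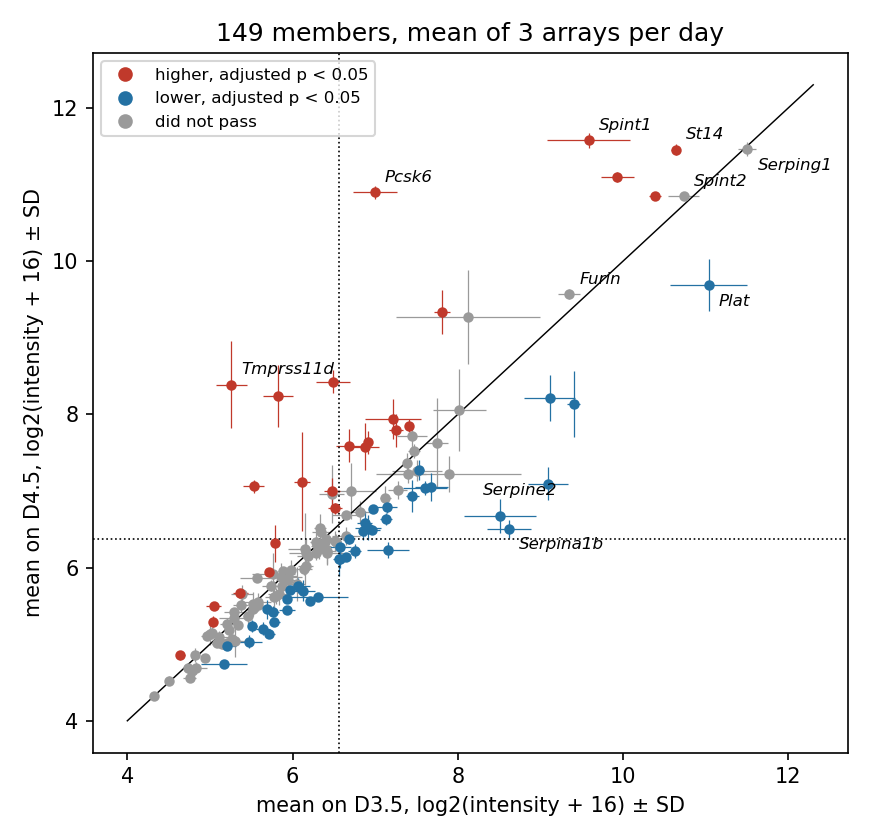
Mean level of each of the 149 members on D3.5 (x axis) and D4.5 (y axis), in log2(intensity + 16) after quantile normalization, with SD over the 3 arrays of a day as bars. The line marks equal levels and the dotted lines the receptor limits of 6.56 and 6.37; Pcsk6, Spint1 and Tmprss11d lie far above the line, Plat, Serpine2 and Serpina1b far below it, and 84 members lie in the corner under both limits.

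The remaining genes of the Prss family moved in both directions. Of the 14 listed under Prss symbols outside the classes above and below, 3 rose, 4 fell and 7 did not pass, beside 18.0% and 26.4% of all genes. Genes were classed by the symbol in the table, and the 14 include Prss7, now named Tmprss15, which encodes the membrane-anchored enteropeptidase and did not pass. Prss35, a serine protease-like protein described in the mouse ovary, was at 5.83, 6.01 and 5.65 on D3.5, at receptor level, and at 7.97, 8.05 and 8.70 on D4.5. It rose by 2.41 ± 0.20, or 5.32-fold (adjusted p = 0.000132), and by 1.74 with a constant of 64. Prss22, known as tryptase epsilon, rose by 0.72 ± 0.09 (0.42 in the values as deposited) and Prss12, known as neurotrypsin, by 0.90 ± 0.13. Neither pair of days overlapped, as was so for 58.6% of all genes.

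Prss23 was at 8.97, 9.46 and 8.89 on D3.5 and at 8.25, 7.90 and 8.49 on D4.5 (-0.90 ± 0.19, adjusted p = 0.00841). Its value is the mean of table rows that did not move alike. Before normalization the first row was at 9.68, 9.88 and 9.54 on D3.5 and at 7.71, 7.39 and 7.91 on D4.5. The other was at 8.02, 9.16 and 8.42 on D3.5 and at 8.78, 8.25 and 8.94 on D4.5, with overlap between the days and no fall. With the first row, which has the higher mean, in place of the mean of rows the change was -1.97. With median centring the change of the mean of rows was -0.52 and did not pass. Prss32 changed by -0.31 ± 0.07, and Prss33, separated from it by 1 gene on chromosome 17, by -0.56 ± 0.13.

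The implantation serine proteinases were near receptor level in these sheets. Prss29 was at 6.47, 6.57 and 6.39 on D3.5 and at 6.96, 7.19 and 6.84 on D4.5. Its change of 0.52 ± 0.10 passed (adjusted p = 0.00623), but in the values as deposited it was 0.09 and did not. Prss28, the adjacent gene on chromosome 17, was at 6.64, 6.35 and 6.43 on D3.5 and at 6.69, 7.39 and 6.79 on D4.5. Its days did not overlap, as those of 58.6% of all genes did not. The change of 0.48 ± 0.18 did not pass (adjusted p = 0.0631). It was 0.052 in the values as deposited and 0.27 without D4.5 replicate 2. It passed with array weights (0.75) and without D4.5 replicate 1 (0.62). Of 5 gland markers none rose and 3 fell, beside 18.0% higher and 26.4% lower of all genes. At receptor level on both days were 2 of them, including Cxcl15, which fell. The mean of the gland markers lay between 7.15 and 7.19 at D3.5 and between 6.66 and 6.94 at D4.5. Foxa2, the defining transcription factor of the glands, stood at 7.09 and 6.69. Alox12e had the highest level and the largest fall of the 5, from 10.76 to 9.58 (-1.18 ± 0.19, adjusted p = 0.00249). The part of gland cells in these levels was not tested.

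Of the 4 HtrA proteases 1 rose and 3 did not pass, beside 18.0% higher and 26.4% lower of all genes. Htra2, a protease of mitochondria, rose by 0.54 ± 0.11 (adjusted p = 0.00822), from 7.18, 7.34 and 7.23 to 7.93, 7.90 and 7.54, a call lost in the values as deposited. Htra1 (0.28 ± 0.21) and Htra3 (0.04 ± 0.10), secreted proteases described in the implanting uterus, did not pass, and the days overlapped for both. Htra4 had a change of 0.04 ± 0.27.

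The kallikreins, a cluster of secreted proteases on chromosome 7, showed no change of 2-fold. Of 26 measured 2 rose, 7 fell and 17 did not pass, beside 18.0% and 26.4% of all genes, with changes between -0.49 and 0.46 and a median of -0.13. At receptor level on both days were 19 of them, including all 13 Klk1b genes. The falls with the smallest p-values were those of Klk14 (-0.49 ± 0.08, adjusted p = 0.00208) and Klk4, the enamel protease (-0.47 ± 0.08). The rises were those of Klk1b8 (0.46 ± 0.07) and Klk1b27 (0.30 ± 0.07) at receptor level, and in the values as deposited neither call held. The Klk1b genes are close copies of each other, so that their single values are uncertain.

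Among the Kazal inhibitors Spink3 had the largest change. Spink3, now named Spink1, encodes a secreted trypsin inhibitor. It was at 5.55, 5.64 and 5.39 on D3.5, at receptor level, and at 6.99, 7.15 and 7.03 on D4.5. The rise of 1.53 ± 0.09 (2.89-fold, adjusted p = 3.19e-05) came down to 0.94 with a constant of 64. Of the 10 Kazal genes 2 rose, 4 fell and 4 did not pass, beside 18.0% and 26.4% of all genes, and 8 were at receptor level on both days. Spink4 (-0.47 ± 0.08) and Spink5, a skin inhibitor of kallikreins (-0.34 ± 0.06), were lower, and Spink7 (0.26 ± 0.07) was higher on D4.5 at receptor level, a call lost in 6 fits with the direction kept and turned in sign in the values as deposited.

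Secreted serine proteases and inhibitors outside the symbol rule gave further context. A list of 25 genes held other serine proteases, related coagulation and complement genes and the mast cell carboxypeptidase gene Cpa3, whose product is not a serine protease. Of these 3 rose, 4 fell and 18 did not pass, beside 18.0% and 26.4% of all genes. F3, tissue factor, the cofactor that starts coagulation, was at 9.29, 9.16 and 9.13 on D3.5 and at 11.16, 11.34 and 10.86 on D4.5 (1.93 ± 0.12, 3.81-fold, adjusted p = 4.99e-05). Masp2, a complement protease, changed by 0.28 ± 0.07 and turned to -0.19 in the values as deposited. Proc, protein C (-0.48 ± 0.10), and the mast cell chymase gene Mcpt4 (-0.88 ± 0.08) were lower, Mcpt4 at receptor level on both days. Of 5 mast cell and neutrophil markers all were at receptor level on both days.

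Of 16 other protease inhibitors 5 rose, none fell and 11 did not pass, beside 18.0% higher and 26.4% lower of all genes. Their median change was 0.02. Wfdc15b, a whey acidic protein family gene, was at 6.44, 6.32 and 6.42 on D3.5, at receptor level, and at 7.58, 7.72 and 7.63 on D4.5 (1.25 ± 0.07, adjusted p = 3.27e-05). Tfpi2, a Kunitz inhibitor outside the Spint genes, rose by 0.74 ± 0.08 from receptor level, and by 0.26 in the values as deposited. Of 5 helpers and inhibitors of the convertases, a list that includes Pcsk1n, 1 rose and 2 fell. Mbtps1, the site-1 protease, changed by 0.23 ± 0.08, a call lost in 9 alternative fits. Atp6ap2, a substrate of furin, changed by -0.46 ± 0.11, and by 0.02 with median centring.

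**Figure D4:**
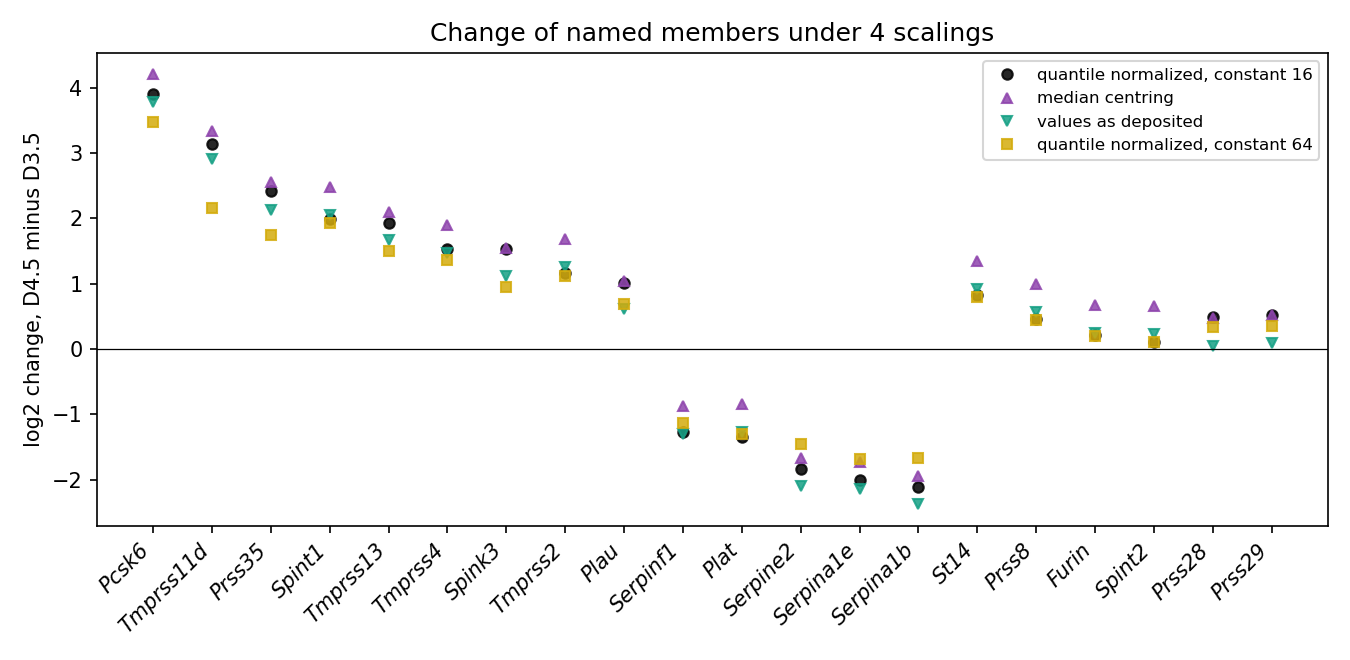
Change on the log2 scale, D4.5 minus D3.5 (y axis), of the 14 members past 2-fold and 6 further members (x axis) under 4 scalings, each shown by its own symbol. Pcsk6 stays between 3.47 and 4.20 and Tmprss11d between 2.15 and 3.33, whereas Spint2 ranges from 0.11 to 0.66 and Prss29 from 0.09 to 0.52.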

How the data were processed

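The authors deposited one intensity per array and probe set, on a linear scale, for 3 arrays of each day. For these values the software, genome build and annotation are not given in the sources used. Of 35556 rows used, 25070 carried 1 gene symbol and gave 21740 genes. Each row held a value for every array, and rows of a gene were averaged. Intensities were turned into log2(intensity + 16), quantile normalized and tested with limma 3.58.1 in R 4.3.3 (lmFit and eBayes, two-sided), with Benjamini-Hochberg adjustment over all genes and a threshold of 0.05. The number of arrays limits the precision. The deposited test columns were not used.

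Of the 149 members, 146 symbols are current in RefSeq and 3 are synonyms, and 114 have a promoter entry. The members and gene lists were chosen with earlier results of these data known. Named genes are the members past 2-fold, up to 2 members or list genes per role and direction with the smallest p-values, a fixed set of members of known function and the highest members on each day. Other genes are named to complete a class or as genome neighbours. Single values of some members are not reported here. Alternatives were median centring, values as deposited, constants of 1 and 64, a level filter, the handling of rows, variance moderation, array weights, a replicate block and leaving out each array. The fit was tested on simulated data. Tables were handled with Python 3.11.15 and pandas 2.3.3.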

Additional observations from a re-analysis of the deposited data

How the results depend on the processing

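Of the 72 named genes, 42 kept direction and side of the threshold in every alternative that could be fitted, 22 lost a call in at least 1, 10 changed sign in at least 1 and 3 gained a call. In the values as deposited, 15914 genes and 122 members passed, against 9651 and 65, and among genes above the median level 5771 genes and 25 members passed, the latter with fewer genes tested. Leaving out 1 array gave 6540 to 9813 genes, 46 to 64 members and 13 to 16 members past 2-fold, against 14. Of these 14, the adjusted p stayed under 0.05 for 13 in the values as deposited, without D3.5 replicate 3 and without D4.5 replicate 2, the exception being Plau, and for all measured in every other alternative. Signs turned in the values as deposited for Htra1 (-0.11), Htra3 (-0.42), Klk1b27 (-0.14), Serpina3f (-0.26), Serpine3 (-0.20), Serping1 (0.074), Spink7 (-0.12) and Masp2 (-0.19). With median centring they turned for Pcsk5 (0.13), Serping1 (0.50) and Atp6ap2 (0.022), and with array weights for Htra3 (-0.023) and Pcsk5 (0.081). Leaving out 1 array gave Htra3 -0.059 to 0.10 (lowest without D3.5 replicate 1), Serping1 -0.075 to 0.024 (above 0 without D3.5 replicate 1 or D4.5 replicate 2) and Pcsk5 -0.32 to 0.22 (above 0 without D4.5 replicate 3). The causes were not tested. Same-numbered arrays of the days had correlations of -0.06, 0.06 and 0.10 in their deviations, so the numbers were taken as names. With the replicate number as a block, 54 members passed, 14 of them past 2-fold, and 8283 genes. Members near receptor level have changes that signal over background limits.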
